A study of Mus musculus with 8 samples.

Results

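The single library made from mouse liver ductal cells after 24 h in culture was set against the 2 libraries made after 12 h. These are 3 of the 8 libraries of a time course that follows adult bile duct cells from the fresh liver to growing organoids. All libraries came from healthy adult livers of male C57/B6 mice, with no transgene or knockout named. Ductal cells were dissociated and sorted by flow cytometry for EpCAM, a surface protein of the bile duct epithelium, and the cultured groups were then embedded in Matrigel under organoid medium. RNA was taken from freshly sorted cells (2 libraries), after 12 h (2), after 24 h (1), from a library titled 48h (1) and from organoids at day 6 (2). The library titled 48h carries 24 h in its time-point label and is called the 48h-titled library here. Its place after 24 h rests on the title alone: by the other label the 24 h group would hold 2 libraries that differ widely, above all in the genes of mitosis. Whether the replicates are separate animals is not stated. P-values below therefore rest on a spread that can be technical, and the 24 h library has no replicate.

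Bile duct cells rarely divide in the healthy liver. Placed in a matrix with growth factors they leave quiescence, pass through G1 under cyclin D and cyclin E kinases, load the MCM helicase onto replication origins, copy their DNA and only then switch on the genes of mitosis. Many of the replication genes are known targets of the E2F transcription factors, while the mitotic genes form a later wave. The comparison asks which genes had moved between 12 h and 24 h, on the way to the first division.

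The values are RPKM, reads scaled for gene length and for the reads of the library. A gene was tested when it reached 1 RPKM in at least 2 of the 8 libraries, which left 12900 of 47729 genes. Differences are on the log2(RPKM + 1) scale, which understates changes of low genes. A gene is called above or below the 12 h range when the 24 h value lay at least 1 on that scale, a 2-fold distance, outside both 12 h libraries. This is a position, not a test.

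Most duct markers were present at 24 h. Of 22 tested genes of ductal identity, 19 reached 1 RPKM at 24 h, against 21 and 22 at 12 h. Of the 22, 1 was above the 12 h range and 2 were below it. Epcam read 862 and 1175 RPKM in the 12 h libraries and 877 at 24 h, the keratin genes Krt8 and Krt18 read 1750 and 4314 RPKM at 24 h, and Sox9, a duct transcription factor, read 219. Each of these 4 values lay between its 12 h libraries. Krt19, another duct keratin, differed widely between the 12 h libraries, at 1128 and 257 RPKM. It read 162 at 24 h, the lowest of all 8 libraries. Of the markers of other liver cells, the pan-leukocyte gene Ptprc and the fibroblast genes Col1a1 and Pdgfrb were listed at 0 in all 3 libraries, and the endothelial gene Pecam1 was listed at 0 at 24 h. The summed level of 18 immune markers was 8.34 and 17.7 RPKM at 12 h and 4.88 at 24 h. At 24 h 16 of these 18 were listed at 0, and 1 that was not among the tested genes reached 1 RPKM. The sum over 13 endothelial markers was 1.02 and 1.75 RPKM at 12 h and 0.0256 at 24 h. The 14 mesenchymal markers summed to 181 and 389 RPKM at 12 h and 443 at 24 h, nearly all of it Rgs5, and 11 of them were listed at 0 at 24 h. Of the 4 mesenchymal markers tested, 1 other than Rgs5 was above the 12 h range. Mesothelial markers summed to 37.9 and 48.6 RPKM and then 137, nearly all of it Msln. The 27 hepatocyte markers summed to 707 and 692 RPKM at 12 h and 655 at 24 h.

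Fewer genes were detected in the 24 h library. It held 8814 genes at 1 RPKM or more against 10605 and 10661 at 12 h, and 10727 to 11263 in the other 5 libraries. The number of reads recovered from the steps of low RPKM values was 19202483 at 24 h, below 20947137 and 21732042 at 12 h and inside the range of 13833143 to 28468920 over all libraries. Mitochondrial genes took 9.87% of the summed RPKM at 24 h and 8.83% and 8.68% at 12 h. Among genes at 10 to 20 RPKM in the first 12 h library, 15.6% were under 1 RPKM at 24 h, while 4.25% were under 1 RPKM in the second 12 h library. The loss was smaller at higher levels: of genes at 50 to 100 RPKM the corresponding shares were 1.43% and 0.649%. In the other direction, 6.84% of genes at 10 to 20 RPKM at 24 h were under 1 RPKM in the first 12 h library. A low value at 24 h is therefore less sure than a high value, and the part of the lower number of detected genes in each fall was not tested. In bulk samples fewer cells of a type and less RNA per cell cannot be told apart.

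**Figure D1:**
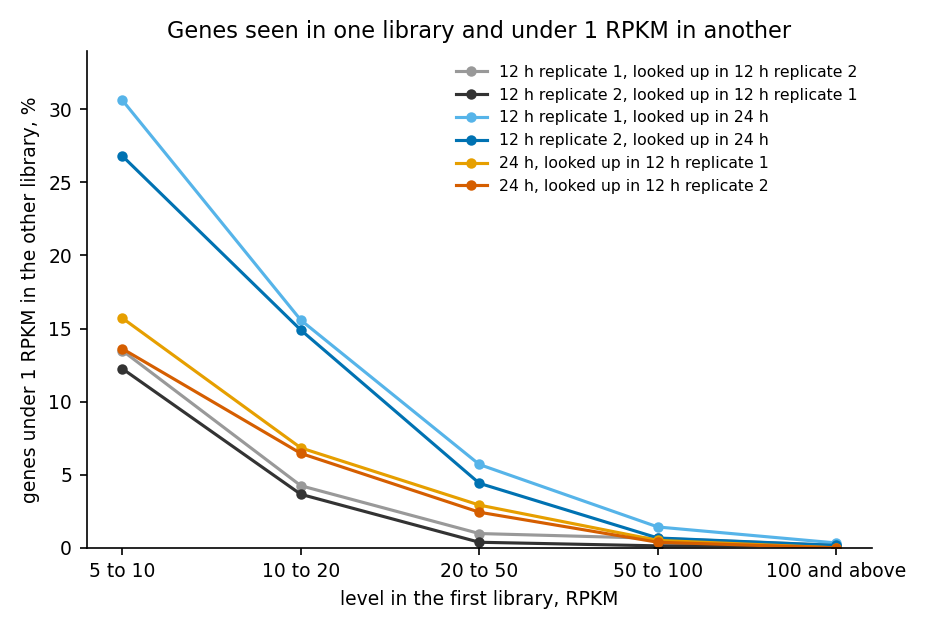
Share of genes (%) under 1 RPKM in a second library, by their level in a first library (RPKM classes on the x axis). Each line joins the 5 classes for 1 ordered pair of libraries. Lookups from 12 h into 24 h (blue) lie highest, at 30.6% and 26.8% in the lowest class, and all lines fall under 2% from 50 RPKM on.

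Of the 12900 genes, 1084 (8.4%) were above the 12 h range at 24 h and 2110 (16.4%) were below it. Both shares are the background for the counts that follow. The median difference between 24 h and the 12 h mean was -0.14. The 2 libraries of the 12 h group were themselves 2-fold or more apart for 27.5% of genes, against 40.1% and 38.9% for the 24 h library and each of them. Among the 1302 genes averaging 50 RPKM or more over all libraries these shares were 7.53%, 17.5% and 14.1%. Quantile normalization turned the split to 1293 above and 1313 below, while centring on library medians left 1106 above and 2083 below. A linear model over all 8 libraries (limma), in which the lone 24 h library is assumed to vary like the replicated groups, called 169 genes higher (1.31%) and 449 lower (3.48%) at an adjusted p under 0.05. Without either fresh library, or without either organoid library, it called 0 in both directions, and at an unadjusted p under 0.05 it then called 553 to 1124 higher and 1444 to 2199 lower. Single calls are named below as such, and positions against both 12 h libraries carry the description.

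**Figure D2:**
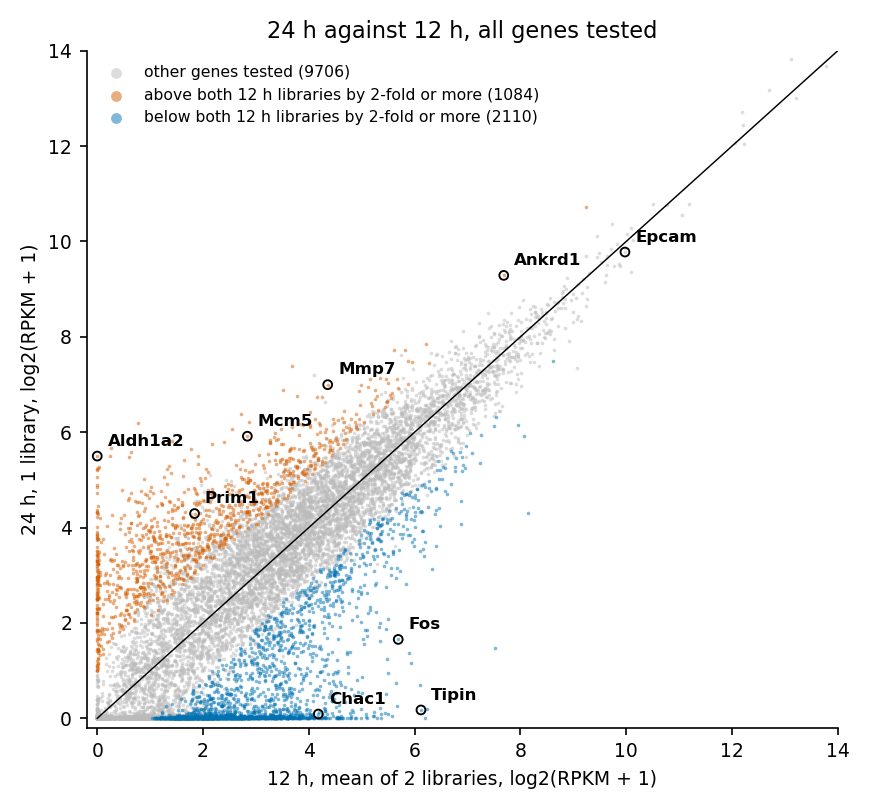
Level at 24 h (1 library, y axis) against the mean of the 2 libraries at 12 h (x axis), both as log2(RPKM + 1), for the 12900 genes tested. Orange points (1084) lie above and blue points (2110) below both 12 h libraries by 2-fold or more; the line marks equal levels and Epcam lies close to it.

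Among the genes that drive cells from G1 into S phase single members were higher at 24 h, and the list as a whole stood near the background. Of 30 tested members of a list of G1 cyclins, kinases and inhibitors, 4 were above the 12 h range (13.3%) and 3 below (10%), and the list's median difference was -0.00. Cks1b, a small subunit of cyclin-dependent kinases that helps the cell destroy the inhibitor p27, read 8.39 and 11.3 RPKM at 12 h and 56.9 at 24 h. That is 5.79 times the 12 h mean, and the limma difference was 2.43 ± 0.42 (SE, adjusted p = 0.034). Fresh cells held 7.04 and 6.24 RPKM of Cks1b, the 48h-titled library 92.7 and the organoids 129 and 105, so that the 24 h value stood between the low and the high libraries. Ccne2, a cyclin E gene, read 0.451 and 0.922 RPKM at 12 h, 8.42 at 24 h and 23.7 in the 48h-titled library. The limma difference for Ccne2 was 2.5 ± 0.55 (SE, adjusted p = 0.055), short of the threshold, and part of its exons overlap Ints8. Its sister gene Ccne1 read 0 and 1.99 RPKM at 12 h and was listed at 0 at 24 h, with 20.7 RPKM in the 48h-titled library.

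Cdk4, the kinase partner of D cyclins, read 175 and 188 RPKM at 12 h and 265 at 24 h, having stood at 38.5 and 39.9 in fresh cells. The 24 h value exceeded both 12 h libraries, but by less than 2-fold. Ccnd1, the cyclin D1 gene, read 47.0 and 42.2 RPKM at 12 h and 56.3 at 24 h, against 163 in the 48h-titled library. Ccnd2, the cyclin D2 gene, read 7.54 and 5.09 RPKM at 12 h and 14.8 at 24 h. The Cdk6 kinase gene read 7.77 and 11.1 RPKM and then 15.3. Of the inhibitors, Cdkn1a (p21) read 118 and 172 RPKM at 12 h and 117 at 24 h, after 423 and 648 in fresh cells. Cdkn1b, which codes for p27, read 3.82 and 4.26 RPKM at 12 h and 1.72 at 24 h. Below the range lay E2f3, E2f5 and Cdc25a. E2f5, a repressor of the E2F family, fell from 53.8 and 39.0 RPKM to 7.92 (limma difference -2.39 ± 0.45 SE, adjusted p = 0.040). E2f1, an activator of S phase genes, read 6.77 and 0.846 RPKM at 12 h and 0.743 at 24 h, against 44.9 in the 48h-titled library. The D cyclins and their kinases thus stood above both 12 h libraries by small distances, while E2f1 did not.

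Genes that build the replication fork lay above the 12 h range more often than below it. Of 49 members of a list for replication licensing and the fork, all tested, 10 were above the 12 h range (20.4%) and 3 below (6.12%), and 24 lay above both 12 h libraries by any distance against 30.3% of all genes tested. The list's median difference was 0.24, beside -0.14 for all genes. A limit of 5 RPKM on the average over all 8 libraries, the 24 h library included, was chosen after seeing the data. Among the 36 members that reached it, 8 were above the range, 3 below, and the median was 0.85. Of all 7316 such genes 7.7% were above and 16.1% below, and their median was -0.06. Limma called 0 of the 49 higher and 2 lower. The 10 members above the range were Mcm2, Mcm3, Mcm5, Orc1, Orc6, Gins2, Rfc3, Prim1, Pold3 and Pole. For 3 of them the 24 h library was the highest of all 8, beside 848 of all 1084 genes above the range.

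Mcm5, a subunit of the replicative helicase, read 8.76 and 4.24 RPKM at 12 h and 59.4 at 24 h. This was 9.14 times the 12 h mean, with a limma difference of 3.08 ± 0.76 (SE, adjusted p = 0.071). Fresh cells held 3.29 and 4.43 RPKM, the 48h-titled library 76.5, and the organoids 13.96 and 45.9. Mcm3 read 11.3 and 7.89 RPKM at 12 h, 39.6 at 24 h and 65.3 in the 48h-titled library. Mcm2 read 8.82 and 12.4 RPKM, then 35.0 and 43.0. These 3 helicase genes stood above the 12 h range together. Mcm6 read 28.2 and 57.1 RPKM at 12 h and 111 at 24 h, close to the 2-fold distance from the higher 12 h library at 0.94. Mcm4 differed widely within the 12 h group, at 0.865 and 17.1 RPKM, and read 30.6 at 24 h. Mcm7, whose exons overlap other genes and the microRNA hairpins Mir25 and Mir93, did not, at 22.7 and 21.3 RPKM at 12 h and 19.6 at 24 h. So 5 of the 6 helicase subunits lay above both 12 h libraries and 1 lay below them.

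Other parts of the fork were above the 12 h range as well. Orc6, of the origin recognition complex, read 9.04 and 12.9 RPKM at 12 h and 40.8 at 24 h. Orc1 of the same complex read 0 and 0.370 RPKM and then 6.08, above the 3.65 of the 48h-titled library. Prim1, the catalytic primase subunit that lays down RNA primers, read 2.90 and 2.28 RPKM at 12 h and 18.6 at 24 h. The limma difference was 2.45 ± 0.57 (SE), short of the threshold. Gins2, a helicase cofactor, read 1.93 and 2.21 RPKM and then 9.72. Pold3, an accessory subunit of DNA polymerase delta, read 9.87 and 13.4 RPKM at 12 h and 34.5 at 24 h, the highest of all 8 libraries. The clamp loader gene Rfc3 read 16.4 and 19.6 RPKM and then 40.8. Pole, the catalytic subunit of polymerase epsilon, read 0.00856 and 0.849 RPKM at 12 h and 2.90 at 24 h. Each of these 7 genes was higher at 24 h than in either fresh library.

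Not all replication genes were higher. Pcna, the sliding clamp, read 19.7 and 16.2 RPKM at 12 h and 15.1 at 24 h, with 35.7 in the 48h-titled library. The licensing factors Cdc6 and Cdt1 read 0 and 9.37 RPKM at 24 h, against 0.0730 and 2.01, and 1.03 and 16.4, at 12 h. Cdc45, a component of the active helicase, was listed at 0 at 24 h after 0.0212 and 2.29 RPKM at 12 h, and read 53.7 in the 48h-titled library. Below the range lay Tipin, a fork protection factor, at 49.4 and 95.0 RPKM and then 0.129. Gins1 fell from 10.3 and 10.5 RPKM to 0.859 (limma difference -2.61 ± 0.51 SE). Gmnn, the geminin gene, an inhibitor of Cdt1, read 10.2 and 2.58 RPKM at 12 h, 0.284 at 24 h and 92.0 in the 48h-titled library. The 24 h value of Tipin was the lowest of all 8 libraries.

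**Figure D3:**
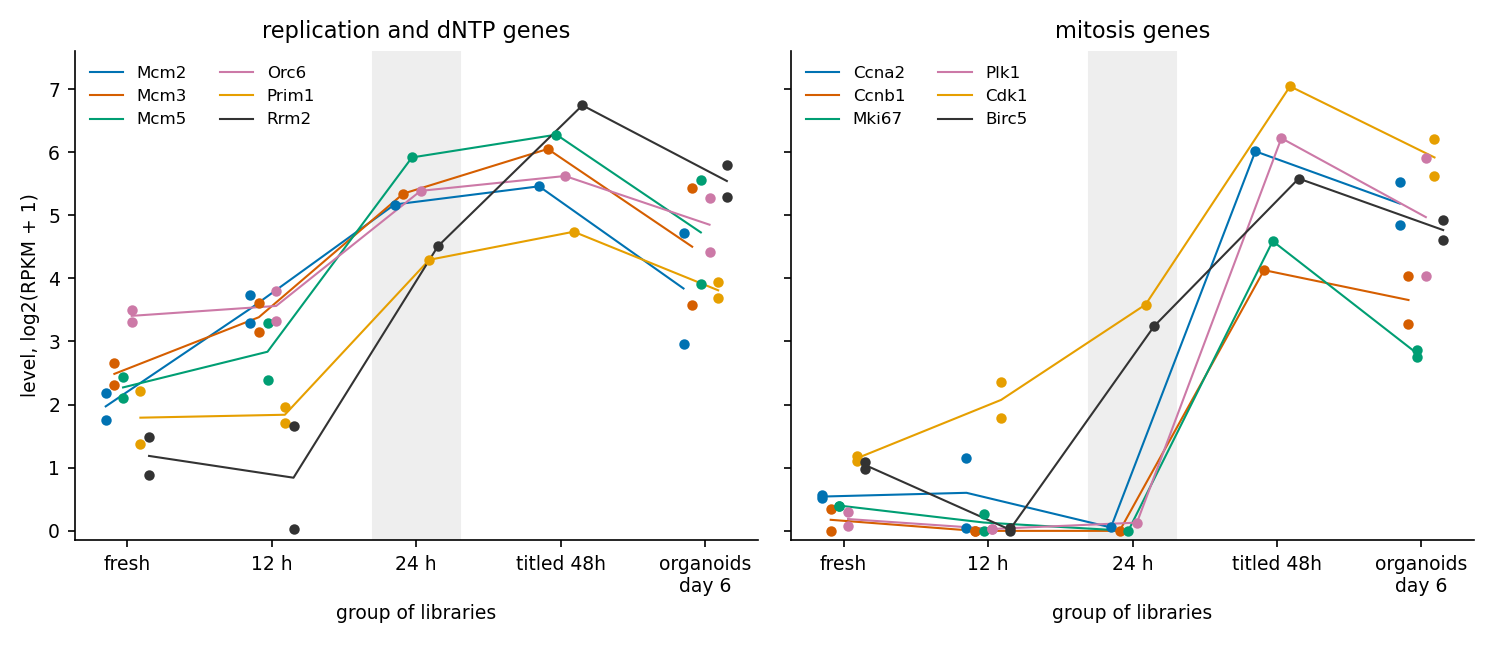
Level of 6 replication and dNTP genes (left) and 6 mitosis genes (right) in each library, as log2(RPKM + 1). Points are single libraries, lines join group means and the grey band marks 24 h. In the left panel all 6 genes are above both 12 h libraries at 24 h; on the right Ccna2, Ccnb1, Mki67 and Plk1 stay under 0.1 RPKM at 24 h and are high in the 48h-titled library, while Cdk1 and Birc5 are already above 12 h.

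The promoters of these genes are shown because the replication genes that moved together are known for E2F sites near their starts. In RefSeq promoter windows (GRCm38.p6, 250 bases before to 50 after each start, matched by symbol) the E2F-type letters TTTGGCGC, TTTCCCGC, TTTCGCGC and TTTGCCGC were searched on both strands, and matches may overlap. At least 1 match stood in the windows of 16 of the 40 replication list members with a window (40%), beside 4.77% of 9369 tested genes and 2.61% of all 27025 genes with a window. Of the 10 members above the 12 h range, 8 had a window and 5 of them a match, and 11 of the other 32 had a match. No match says only that these letters are absent from the window. The stretches below run from 160 bases before to 30 after the start, 5′ to 3′ along the gene's strand, with matches in capitals.
Mcm5 (chr8:75109349-75109538, + strand): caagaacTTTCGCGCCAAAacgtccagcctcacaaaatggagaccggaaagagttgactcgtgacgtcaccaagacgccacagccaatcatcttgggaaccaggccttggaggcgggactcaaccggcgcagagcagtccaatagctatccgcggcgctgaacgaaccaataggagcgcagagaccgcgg
Mcm6 (chr1:128359676-128359865, - strand): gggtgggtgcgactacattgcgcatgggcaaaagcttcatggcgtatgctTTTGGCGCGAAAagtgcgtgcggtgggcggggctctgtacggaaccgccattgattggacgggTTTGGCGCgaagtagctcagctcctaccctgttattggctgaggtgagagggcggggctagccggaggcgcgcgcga
Orc1 (chr4:108579294-108579483, + strand): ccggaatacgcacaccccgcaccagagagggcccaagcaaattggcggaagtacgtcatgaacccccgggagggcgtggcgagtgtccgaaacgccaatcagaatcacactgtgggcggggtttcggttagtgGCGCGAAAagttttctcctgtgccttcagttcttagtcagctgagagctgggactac
Rfc3 (chr5:151651179-151651368, - strand): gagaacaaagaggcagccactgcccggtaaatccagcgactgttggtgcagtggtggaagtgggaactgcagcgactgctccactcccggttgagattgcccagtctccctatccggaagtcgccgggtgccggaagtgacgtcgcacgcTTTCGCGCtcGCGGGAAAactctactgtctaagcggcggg
Mcm3 (chr1:20820283-20820472, - strand): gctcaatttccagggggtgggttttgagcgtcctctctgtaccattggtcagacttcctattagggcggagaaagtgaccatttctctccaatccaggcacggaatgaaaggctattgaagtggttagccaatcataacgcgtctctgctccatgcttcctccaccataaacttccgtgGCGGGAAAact
Mcm2 (chr6:88898751-88898940, - strand): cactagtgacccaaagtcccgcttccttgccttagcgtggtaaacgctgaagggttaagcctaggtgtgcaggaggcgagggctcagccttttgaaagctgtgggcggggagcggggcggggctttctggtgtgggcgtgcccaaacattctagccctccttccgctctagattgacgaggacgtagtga
In the Mcm5 stretch 2 overlapping matches form a single run in capitals, in Mcm6 there are 2 runs, and in Rfc3 the matches stand 2 bases apart, before and at the start. Mcm2, Prim1 and Orc6, which also stood above the 12 h range, held no match. Mcm6 lay above both 12 h libraries by less than 2-fold. Mcm7, which lay below both, held 2 matches in 1 of its 2 windows. A match is a description of the letters and no measurement of binding.

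Among enzymes that make DNA building blocks single members were higher, and the share 2-fold above was near the background. Of 29 tested members of a nucleotide synthesis list, 3 were above the 12 h range (10.3%) and 3 below (10.3%). The shares for all genes were 8.4% and 16.4%. By any distance 15 lay above both 12 h libraries, against 30.3% of all genes tested. The median difference was 0.27. Rrm2, the regulated subunit of ribonucleotide reductase, read 0.0172 and 2.16 RPKM at 12 h and 21.8 at 24 h, then 106 in the 48h-titled library. It rose in limma by 3.67 ± 0.76 (SE, adjusted p = 0.048). Mthfd1, a folate enzyme that supplies carbon units to purines and thymidylate, read 28.7 and 30.7 RPKM at 12 h and 115 at 24 h, above every other library. Tyms, thymidylate synthase itself, read 6.89 and 3.47 RPKM at 12 h and 3.78 at 24 h, inside the 12 h range, against 39.0 in the 48h-titled library. Below the range lay 3 enzymes of purine synthesis, Gmps, Atic and Pfas.

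Genes of mitosis remained close to off. Of 42 tested members, 10 reached 1 RPKM at 24 h, against 10 and 14 at 12 h, 9 and 11 in fresh cells, and all 42 in the 48h-titled library. Their median level was 0.0275 and 0.0864 RPKM at 12 h, 0.0292 at 24 h and 22.2 in the 48h-titled library. Ccnb1 (cyclin B1) was listed at 0 in both 12 h libraries and at 24 h, and read 16.5 RPKM in the 48h-titled library. Mki67, the Ki-67 proliferation marker, was listed at 0 and 0.201 RPKM at 12 h and at 0 at 24 h, then 23.1. Ccna2 (cyclin A2) read 0.0351 and 1.23 RPKM at 12 h, 0.0383 at 24 h and 63.6 in the 48h-titled library. Plk1, a mitotic kinase, read 0.0947 RPKM at 24 h against 73.6 there. Thus 10 of the 49 replication list members stood above the 12 h range, and 3 below it, in a library in which the main mitotic cyclins were not detected or nearly so.

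A small group of mitosis genes was nevertheless above the 12 h range at 24 h, 6 of the 42 (14.3%), while 4 were below it (9.52%). Among the 26 averaging 5 RPKM or more over all libraries, 6 were above (23.1%) and 4 below (15.4%), with a median of -0.01. That share above was close to the 22.2% of the replication list, whose median was 0.85. Birc5 (survivin), of the chromosomal passenger complex, was listed at 0.0281 and 0 RPKM at 12 h and read 8.48 at 24 h, a rise of 3.23 ± 0.51 in limma (SE, adjusted p = 0.028). Incenp, its partner in that complex, read 4.36 and 2.503 RPKM and then 12.8. Cdk1, the mitotic kinase, read 4.12 and 2.47 RPKM at 12 h, 11 at 24 h and 131 in the 48h-titled library. Ect2, a regulator of cytokinesis, read 0 and 0.00854 RPKM and then 4.78. Mad2l1, of the spindle checkpoint, read 0.723 and 0.516 RPKM and then 4.46. Top2a, the topoisomerase that untangles chromosomes, read 0.117 and 0.158 RPKM at 12 h, 2.05 at 24 h and 49.1 in the 48h-titled library. All 6 were higher still in the 48h-titled library. Of the 4 below, Pttg1 (securin), which holds back chromosome separation, fell from 28.8 and 41.9 RPKM to 3.83 (limma difference -2.89 ± 0.46 SE, adjusted p = 0.028). Kif23, a cytokinesis motor, read 18.1 and 3.16 RPKM at 12 h and 0.0304 at 24 h.

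Targets of YAP and TEAD, the transcription factors of the Hippo pathway that respond to cell shape and matrix stiffness, had the largest share above the range among the lists of at least 15 tested genes. Of 21 tested members (22 listed) 7 were above (33.3%) and 2 below, and the median difference was 0.31. Among the 16 averaging 5 RPKM or more over all libraries, the limit chosen after seeing the data, 6 were above and 0 below. Their median was 0.97. The 12 h libraries themselves differed in this list, by a median of -0.25 between the first and the second over the 21 and of -0.58 over the 16. Limma called Fstl1 alone, a secreted glycoprotein gene at 0.282 and 0 RPKM at 12 h and 6.10 at 24 h (adjusted p = 0.027).

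Ankrd1, a nuclear ankyrin repeat protein and a standard YAP readout, read 168 and 250 RPKM at 12 h and 625 at 24 h. Fresh cells held more, 889 and 1640 RPKM, and the 48h-titled library held 216. The 24 h value stood between the fresh and the 12 h levels. Ccn1, a matrix protein gene and YAP target, read 661 and 1568 RPKM in fresh cells, 105 and 267 at 12 h, 363 at 24 h and 101 in the 48h-titled library. It lay above the higher 12 h library by less than 2-fold. Amotl1, an angiomotin that holds YAP at junctions, read 6.67 and 17.6 RPKM at 12 h and 42.0 at 24 h, the highest of all libraries. Amotl2, its relative, read 16.3 and 14.6 RPKM and then 38.1. Ajuba, a LIM protein that restrains the LATS kinases, read 50.2 and 27.3 RPKM and then 103. Lats2, such a kinase, read 0.693 and 6.84 RPKM and then 14.99. Axl, a receptor tyrosine kinase, read 6.59 and 2.58 RPKM at 12 h, 19.4 at 24 h and 60.3 in the 48h-titled library. Ccn2, a further classical target, read 10.2 and 17.0 RPKM at 12 h and 14.2 at 24 h and did not leave the 12 h range. For 5 of the 7 members above the range the 24 h library was the highest of all 8, beside 848 of all 1084 genes above it.

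Single genes of growth factor feedback lay on either side of the 12 h range, and the list's share above it was near the background. Of 22 tested genes of ERK feedback and ErbB ligands 2 were above (9.09%) and 6 below (27.3%), beside 8.4% and 16.4% of all genes. Among the 16 averaging 5 RPKM or more over all libraries, 1 was above and 3 were below (18.8%, beside 16.1% of all such genes). Errfi1, an inhibitor of the EGF receptor, read 70.0 and 76.9 RPKM at 12 h and 231 at 24 h, after 528 and 963 in fresh cells. Dusp4, a phosphatase for ERK, fell from 9.50 and 13.1 RPKM to 0.0190 (limma difference -3.58 ± 0.54 SE, adjusted p = 0.025). The EGF receptor ligand Areg read 34.5 and 13.9 RPKM at 12 h, 0.943 at 24 h and 58.3 in the 48h-titled library. Spry1, Spry4, Spred3 and Erbb3 were the other members below the range.

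In the Wnt list, 5 of 22 tested genes were above the 12 h range and 2 below, with a median of -0.22 that turned to 0.34 under quantile normalization and to 0.04 without the second 12 h library. Axin2, the usual feedback readout of the pathway, read 1.21 and 1.14 RPKM at 12 h and 15.4 at 24 h, but 1.23 in the 48h-titled library. Rnf43, which removes Wnt receptors, read 2.02 and 0.554 RPKM and then 6.85. The transcription factor gene Ascl2 was listed at 0 at 12 h and read 2.09 RPKM at 24 h. Tcf7l1, a repressor at Wnt targets, read 1.11 and 3.71 RPKM and then 19.1, while Tcf7, an activator, read 7.86 and 16.3 RPKM and then 0.555. Lgr5, the receptor that marks organoid cells, was near 0 in all 3 libraries, at 0 and 0.224 RPKM at 12 h and 0.0457 at 24 h. Of the Wnt members averaging 5 RPKM or more, 1 of 14 was above the range, so the higher values were mostly of low genes.

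Single surface and matrix genes were above the 12 h range at 24 h, and some were higher again in the 48h-titled library. Their lists were not higher as a whole. Of 25 tested integrin and matrix genes 1 was above (4%) and 3 below (12%). Of 24 cell junction genes 1 was above (4.17%) and 0 below, beside 8.4% and 16.4% of all genes. Mmp7, the matrix protease matrilysin, read 23.8 and 15.9 RPKM at 12 h, 127 at 24 h, 902 in the 48h-titled library and 631 and 710 in organoids. Cdh17, the liver-intestine cadherin, read 2.29 and 3.63 RPKM at 12 h, 30.5 at 24 h, 60.3 in the 48h-titled library and 29.7 and 129 in organoids. Msln, the cell surface glycoprotein mesothelin, read 37.9 and 48.5 RPKM at 12 h, 137 at 24 h and 413 in that library. Of the 8 mesothelial markers, Msln included, 5 were listed at 0 at 24 h. For these 3 genes the 24 h level lay between the 12 h libraries and the 48h-titled library, and the limma adjusted p was 0.085 for Mmp7, 0.096 for Cdh17 and 0.068 for Msln. Fn1, fibronectin, read 9.49 and 18.7 RPKM at 12 h and 70.8 at 24 h, but 11.6 in the 48h-titled library. Cldn6, a claudin, read 7.77 and 20.2 RPKM at 12 h, 108 at 24 h and 56.3 in the 48h-titled library. Timp3, a protease inhibitor gene that lies within Syn3, read 2.90 and 0.0339 RPKM at 12 h, 14.4 at 24 h and 3.79 in the 48h-titled library. Mmp7, Adam10 and Timp3 made up the 3 of 15 proteases and inhibitors above the range (20%), and 2 were below it (13.3%).

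**Figure D4:**
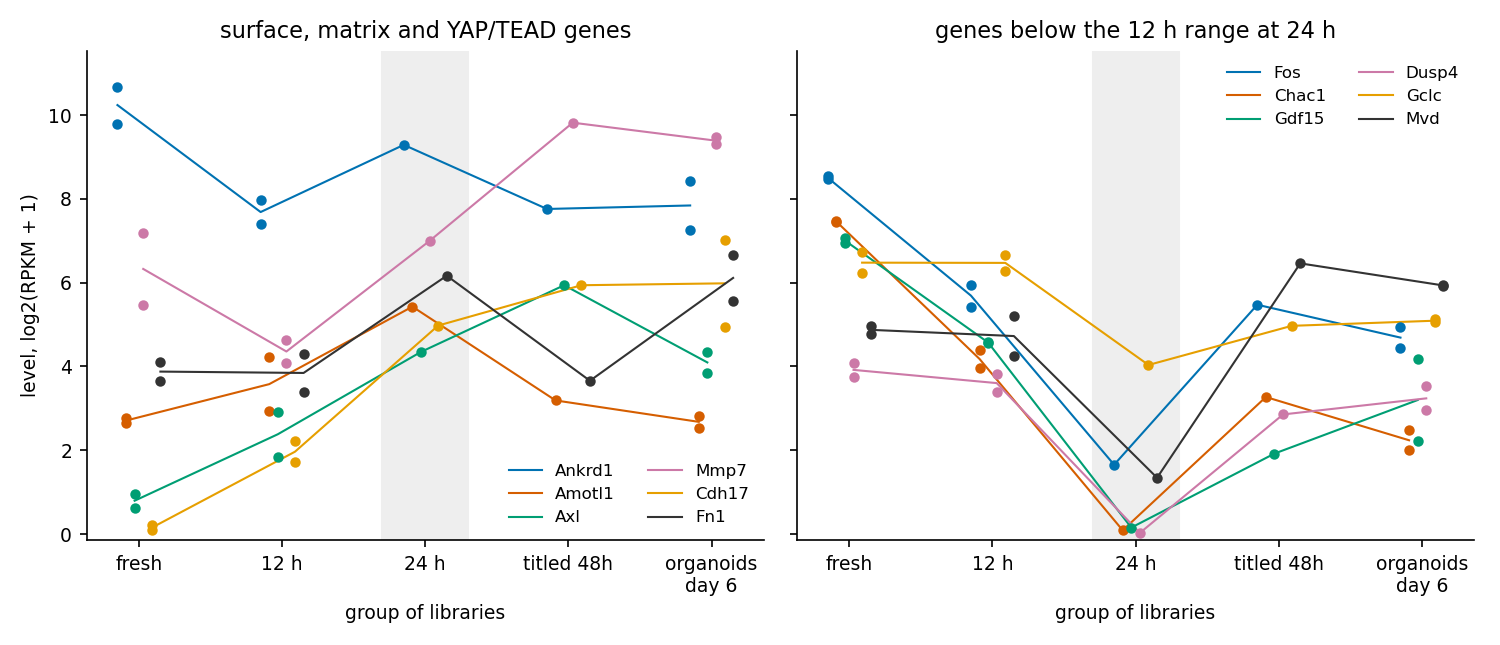
Level of 6 surface, matrix and YAP/TEAD genes (left) and 6 genes below the 12 h range at 24 h (right) in each library, as log2(RPKM + 1). Points are single libraries, lines join group means and the grey band marks 24 h. On the left Mmp7 and Cdh17 are above 12 h at 24 h and higher again in the 48h-titled library, while Ankrd1 and Amotl1 peak there against 12 h and the 48h-titled library; on the right the 24 h point is the lowest for every gene plotted.

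Stress genes were lower at 24 h or near the 12 h level. Of 28 tested genes of the integrated stress and unfolded protein responses 0 were above the 12 h range, 7 were below (25%), and the median difference was -0.35. The share below for all genes was 16.4%. Chac1, a glutathione-degrading enzyme induced through ATF4, fell from 14.6 and 19.99 RPKM to 0.0636 (limma adjusted p = 0.020), after 174 and 176 in fresh cells. Ddit3 (CHOP), the factor that ties lasting stress to cell death, read 17.2 and 20.8 RPKM at 12 h and 0.243 at 24 h (limma adjusted p = 0.11), and overlaps neighbouring annotated genes. Dnajb9, an ER cochaperone, read 43.0 and 45.9 RPKM and then 9.58. The amino acid transporter Slc7a5 read 28.8 and 26.7 RPKM and then 8.44. Hsp90b1, an ER chaperone, read 132 and 130 RPKM and then 62.3. Other ATF4 targets kept closer to 12 h. Asns, asparagine synthetase, read 122 and 136 RPKM at 12 h and 108 at 24 h, and Trib3, a pseudokinase, read 73.4 and 48.1 RPKM and then 41.5. For all 7 members below the range the 24 h library was the lowest of all 8, beside 1727 of all 2110 genes below it. The heat shock and folding chaperone list held 0 of 22 members beyond the range in either direction.

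Of 23 tested targets of p53 0 were above the range and 5 below (21.7%, beside 16.4% of all genes), with a median of -0.46, and limma called 2 lower. Gdf15, a stress cytokine, fell from 23.0 and 22.6 RPKM to 0.112 (limma difference -4.42 ± 0.78 SE, adjusted p = 0.035). Bbc3, the cell death gene of PUMA, fell from 7.82 and 5.32 RPKM to 0.0259 (limma adjusted p = 0.045). Plk3, a stress kinase, read 12.8 and 6.42 RPKM and then 0.0412. Of the NRF2 targets 3 of 17 were below and 2 above. Gclc, which limits glutathione synthesis, fell from 76.4 and 101 RPKM to 15.4 (limma adjusted p = 0.034). Hmox1, heme oxygenase, read 52.97 and 70.4 RPKM and then 12.0, and Gsta4, a glutathione transferase, read 355 and 223 RPKM and then 18.8. Gstm1, another glutathione transferase, ran against them, at 18.8 and 29.9 RPKM and then 78.2, and so did G6pdx, the entry enzyme of the pentose phosphate pathway, at 29.3 and 28.2 RPKM and then 67.6.

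Fos, the immediate early gene that cell isolation is known to induce, fell from 61.0 and 42.0 RPKM at 12 h to 2.15 at 24 h (limma difference -4.04 ± 0.44 SE, adjusted p = 0.020). It had read 371 and 354 RPKM in fresh cells and read 43.4 in the 48h-titled library. Only 2 of 22 tested immediate early genes, Fos and Klf4, were below the range and 0 above. Myc read 79.6 and 152 RPKM at 12 h and 183 at 24 h. Of 22 NF-kB and inflammatory genes 6 were below, among them Tnf at 8.71 and 5.17 RPKM and then 0.0953, and 2 were above, among them the macrophage growth factor Csf1 at 1.66 and 3.46 RPKM and then 17.5. Of 22 interferon genes 5 were below and 0 above. Irf7, a regulator of interferon genes, fell from 19.6 and 10.6 RPKM to 0.879.

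Single genes of sterol synthesis lay on either side of the 12 h range. Of 28 tested genes of cholesterol and fatty acid synthesis, 2 were above by 2-fold or more (7.14%) and 5 below (17.9%). Both shares were near the 8.4% and 16.4% of all genes. By any distance 16 lay above both 12 h libraries, against 30.3% of all genes tested. The median difference was 0.50, but the first 12 h library itself lay above the second by a median of 0.44. Mvd, mevalonate diphosphate decarboxylase, fell from 35.7 and 18.1 RPKM to 1.54 (limma adjusted p = 0.024). Mvk, mevalonate kinase, fell from 13.4 and 6.55 RPKM to 0.0973 and Sc5d, a late sterol desaturase, from 68.2 and 57.1 RPKM to 17.0 (limma adjusted p = 0.049 for each). Dhcr7, the last step to cholesterol, read 11.6 and 5.02 RPKM and then 25.1. Fdft1, squalene synthase, read 42.6 and 29.6 RPKM and then 86.1. Scd2, a fatty acid desaturase, read 23.5 and 26.5 RPKM at 12 h, 56.6 at 24 h and 124 in the 48h-titled library. In glycolysis 1 of 20 tested genes was above and 3 below. The 1 above was Slc2a1, the glucose transporter GLUT1, at 34.8 and 45.8 RPKM at 12 h and 140 at 24 h.

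Ribosome biogenesis, the growth programme linked to Myc, was not higher at 24 h. Of 43 tested members 1 was above the range and 6 below, 24 lay below both 12 h libraries by any distance against 41.3% of all genes tested, and the median was -0.29. Nop16, a nucleolar protein, read 136 and 82.0 RPKM at 12 h and 44.3 at 24 h. Odc1, the polyamine enzyme, read 52.2 and 56.3 RPKM and then 29.1. Ductal identity genes stayed near the 12 h level, with 1 of 22 above, 2 below and a median of 0.00. The DNA methylation machinery (13 tested) and the Notch pathway (9 tested) held 0 tested genes beyond the range in either direction. Tet1, an enzyme that starts DNA demethylation, reached 1 RPKM in a single library and was not among the genes tested. It read 0.00325 and 0.00313 RPKM at 12 h and 2.43 at 24 h, and was listed at 0 in the 48h-titled library.

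**Figure D5:**
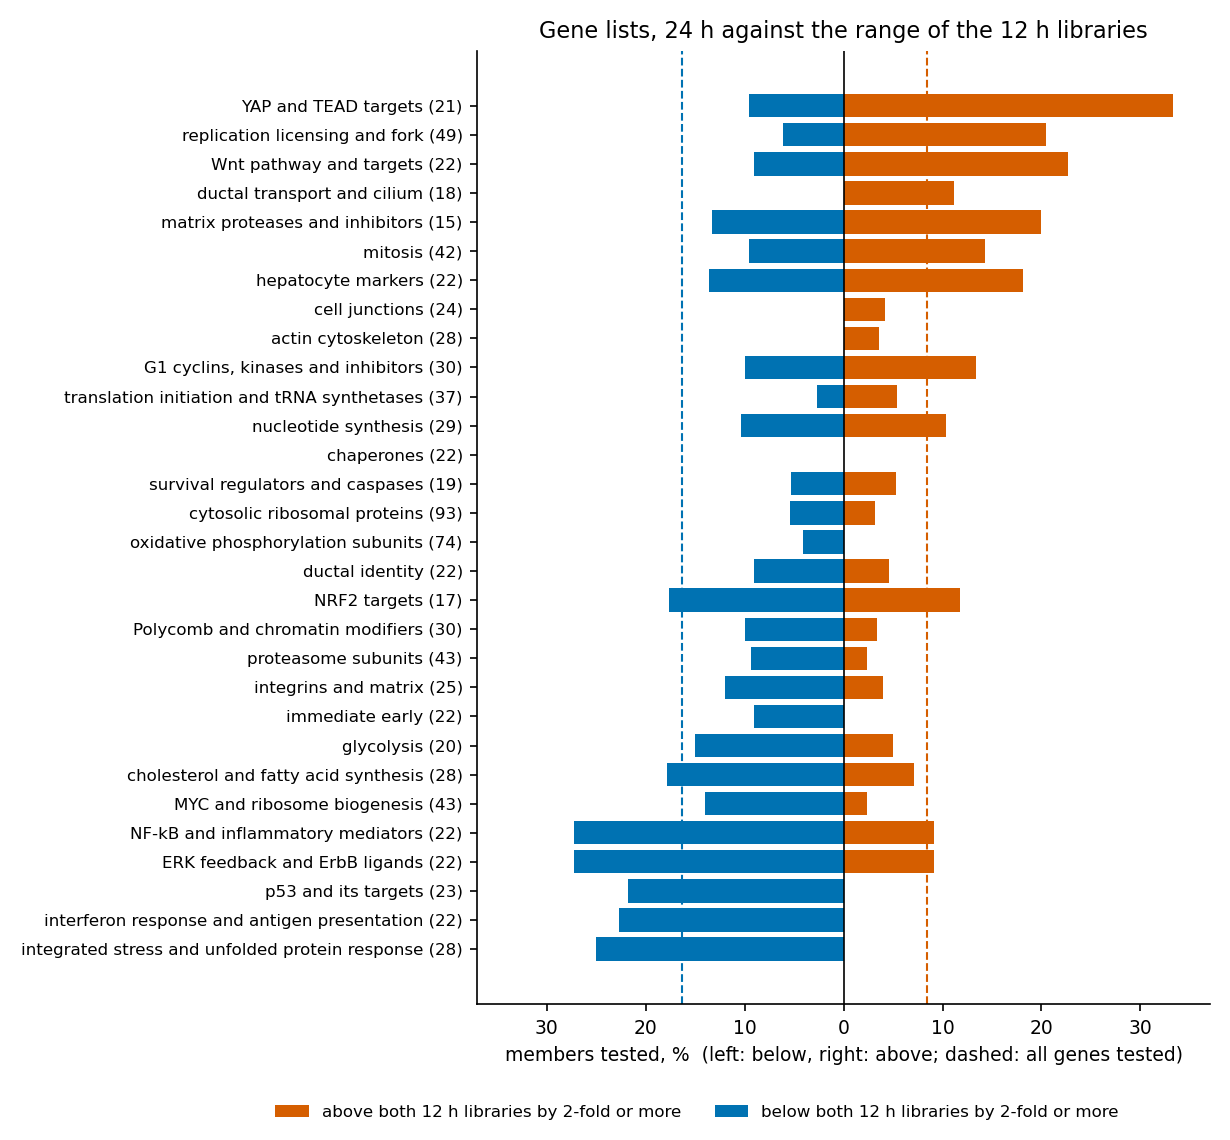
Share of the tested members (%) of each list of at least 15 tested genes that lay 2-fold or more above (right, orange) or below (left, blue) both 12 h libraries at 24 h. Numbers of tested members stand in brackets and dashed lines mark all genes tested, at 8.4% above and 16.4% below. YAP and TEAD targets and the replication list have the widest margin of high over low members. The stress, interferon, p53, immediate early and oxidative phosphorylation lists have low members and no high ones.

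The 12 largest distances above the 12 h range, among genes averaging 5 RPKM or more at 12 h and 24 h, are given as a description, since they were chosen for that difference. In 9 of them both 12 h libraries were under 1 RPKM, and the highest 12 h value among the 12 was 1.93 RPKM. All 12 therefore reached that average through the 24 h library alone. Aldh1a2, which makes retinoic acid, was listed at 0 in both 12 h libraries and read 44.2 RPKM at 24 h. It was not new to these cells: fresh cells held 10.1 and 15.2 RPKM, the 48h-titled library 16.5 and the organoids 15.6 and 23.7. Wincr1, a long non-coding RNA known as Wnt-induced, read 0 and 0.423 RPKM at 12 h, 50.1 at 24 h and 22.5 in the 48h-titled library. Dio3, which inactivates thyroid hormone, was listed at 0 at 12 h and in the 48h-titled library, and read 28.5 RPKM at 24 h. Mapk12, a p38 kinase gene, read 0.0253 and 1.36 RPKM and then 47.1. The transcription factor gene Foxn1 read 0 and 0.0143 RPKM and then 37.3, and was listed at 0 in the 48h-titled library. The others were Ropn1l, Prelid2, Uts2b, Pced1b, Rcn3, Taco1 and Plpp7. In all 12 the 24 h library was the highest of the 8.

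The 12 largest distances below, chosen likewise, were of genes at 30.8 RPKM or more in both 12 h libraries. Rab18, a small GTPase of lipid droplets and the ER, read 72.2 to 117 RPKM in the other 7 libraries and 0.138 at 24 h. H2afx, the histone variant H2AX that marks DNA breaks, read 34.6 and 32.2 RPKM at 12 h and was listed at 0 at 24 h, against 76.2 in the 48h-titled library. Vps11, a subunit of the endosomal tethering complexes, read 33.8 and 39.3 RPKM and then 0.0983. Tipin, above, was among them, with AW112010, Tmub2, Gde1, Sdcbp2, Gas8, Gnptg, Gt(ROSA)26Sor and Mcrip2. In all 12 the 24 h library was the lowest of the 8, and 11 were under 1 RPKM. Over all 2110 genes below the range, 1487 were under 1 RPKM at 24 h, 613 were listed at 0 and 1727 were lowest at 24 h. Of the 1084 above the range, 848 were highest at 24 h among the 8 libraries. Genes chosen for an extreme 24 h value tend to rank as extreme there, so these ranks do not show a change in other libraries.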

How the data were processed

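The authors deposited gene-level RPKM values for 8 libraries (Smart-seq2 amplification, Nextera XT libraries, per the labels' protocols). The submitters' processing notes name GRCm38 and edgeR; aligner, counter, annotation, filters and strandedness are each not given in the sources used here, so overlapping genes, paralogs and antisense genes may share reads: 46 of 139 named genes share exons with another annotated gene, among them Mthfd1, Mmp7, Fn1, Slc2a1 and Axin2. Of 47729 gene IDs, 47310 were named from GENCODE M21. Values were analysed as log2(RPKM + 1) for genes that reached 1 RPKM in 2 or more libraries. The 24 h library was placed against both 12 h libraries, and limma 3.58.1 (R 4.3.3; 8 libraries in 5 groups, trend, 3 residual and 3.65 prior degrees of freedom, two-sided, Benjamini-Hochberg) gave adjusted p-values. In each library 77.6% to 80.3% of small values were whole reads within 0.01, which gave depth but no count test. The members and the 36 gene lists were chosen with earlier results of these data known. Named genes were the 12 largest rises and falls with a mean of at least 5 RPKM, up to 4 members per list beyond the range at that mean, and a fixed list of cell cycle and identity genes; members of the lists named outside this rule were chosen after their values were seen. The scripts were tested on simulated data. A member of the nucleotide synthesis list is counted but not reported by name here.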

Additional observations from a re-analysis of the deposited data

How the results depend on the processing

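Main counts were 1084 genes above and 2110 below the 12 h range, and 169 higher and 449 lower in limma. At 4-fold 314 were above and 829 below, and at any distance 3905 and 5322. A pseudocount of 5 gave 582 above and 787 below, and in limma 98 lower; a pseudocount of 0.1 gave 1251 lower. Genes averaging 5 RPKM or more at 12 h and 24 h numbered 653 above, 1095 below and 92 higher in limma. A limit of 5 RPKM on the average over all 8 libraries, chosen after seeing the data, left 563, 1181 and 51. With no filter limma gave 291 higher and 158 lower. Quantile normalization gave 1313 below, 112 higher and 143 lower, against 1293 above. Array weights gave 315 higher and 827 lower. The 12 h and 24 h libraries alone gave 0 in both directions (553 higher and 1121 lower at an unadjusted p under 0.05). Leaving out 1 of the 12 h libraries gave 1773 to 1910 above and 3245 to 3265 below. Leaving out 1 library in turn gave 0 to 337 higher and 0 to 771 lower in limma: 263 and 593 without the first 12 h library, 337 and 771 without the second, and 0 without any fresh or organoid library. The cause was not tested. No paired analysis was possible because the 24 h group has 1 library, which carries no replicate number. A named gene 2-fold or more beyond the 12 h range cannot change direction through another pseudocount, another filter or a dropped 12 h library. Only centring or quantile normalization could turn such a gene, and under these settings none turned. Of the other named genes 6 changed direction: Cdt1 went from 0.80 to -0.75 without the first 12 h library, and Tyms, Ccna2, Lgr5, Epcam and Sox9 crossed 0. The medians of 16 lists crossed 0 as well under some setting. With 1 library at 24 h and 2 at 12 h, low values are limited by detection more than high values.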

Other observations

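Machinery common to all cells lay close to its 12 h level. Of 93 tested cytosolic ribosomal protein genes, 55 lay below both 12 h libraries and 16 above by any distance, but 5 and 3 by 2-fold or more, with a median difference of -0.22 on the log2(RPKM + 1) scale. Many of these genes have near-identical pseudogenes, and their RPKM depends on how reads were shared out. Of 74 subunits of oxidative phosphorylation 0 were above by 2-fold or more and 3 below, and of 43 proteasome subunits 1 was above and 4 below. Of 28 actin cytoskeleton genes 14 lay above both 12 h libraries and 8 below by any distance, with 1 and 0 by 2-fold or more.

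Hepatocyte markers were mixed at 24 h, with 4 of 22 above the 12 h range and 3 below. Trf, the transferrin gene, read 3.13 and 4.19 RPKM at 12 h, 13.2 at 24 h and 80.6 in the 48h-titled library. Alb, albumin, read 23.0 and 24.5 RPKM at 12 h and 27.9 at 24 h, after 488 and 660 in fresh cells. Fgb, a fibrinogen chain, read 1.02 and 1.56 RPKM, then 9.83 and 79.7. Slc5a1, the glucose cotransporter SGLT1 of bile duct cells, read 27.5 and 38.2 RPKM in fresh cells, 0.558 and 4.003 at 12 h and 11.7 at 24 h.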
